A study of Mus musculus with 11 samples.

Results

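Mitochondrial ribosomal protein genes were examined in CA1, a field of the hippocampus that is needed for memory, of mice. They were chosen as protein-coding genes whose mouse symbol begins with Mrpl or Mrps followed by a digit. There were 78 such genes among 48709 counted features, of which 21695 were protein-coding. Of the 78, 51 encode proteins of the large subunit, 26 encode proteins of the small subunit, and Mrps36, despite its symbol, encodes a subunit of the 2-oxoglutarate dehydrogenase complex. Mrps30 and Mrps18a carry small-subunit symbols but encode large-subunit proteins and were counted there.

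The mitochondrial ribosome translates the small set of messages transcribed from the mitochondrial genome, all of which encode subunits of the respiratory chain and the ATP synthase. Its ribosomal RNAs come from the mitochondrial genome, whereas every one of its proteins is encoded in the nucleus, translated in the cytosol and imported. Many of these proteins have counterparts in the bacterial ribosome and the others were acquired by mitochondria. Neurons depend on oxidative phosphorylation, and inherited loss of several of these proteins causes disease of the brain and heart.

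Polyadenylated RNA was sequenced in 6 libraries from CamkdeltaC transgenic mice and 5 libraries from littermate control mice. All mice were 3 months old and both sexes were used, without a sex, litter or batch given for a library. The transgene carries a cytosolic isoform of CaM kinase II delta, and mice of this kind are known as a model of heart failure in which a heart muscle promoter drives the kinase. The series concerns memory impairment in heart failure, and the tissue compared here is brain. The labels do not say that each library is a separate animal, so p-values measure the spread between these libraries, which may be technical.

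Total counts ran from 24403918 to 34153726 in transgenic libraries and from 14263784 to 36898689 in control libraries, the lowest being control 5. Camk2d read 40.4 to 131.6 CPM (counts scaled to the library total after TMM scaling between libraries) in transgenic libraries and 53.7 to 94.3 CPM in control libraries. Its log2 fold change was -0.08 (edgeR quasi-likelihood test, adjusted p = 0.873). Markers of CA1 pyramidal neurons summed to 1160 to 1520 CPM in transgenic libraries and 1020 to 1320 CPM in control libraries, and none of these 6 genes passed the test. The libraries differed in how their counts followed GC content, the share of G and C bases in a transcript. The slope of log2 CPM per 10 points of GC was 0.274, 0.259, 0.176, 0.099, 0.016 and -0.061 in transgenic libraries 1 to 6, and -0.119, -0.062, -0.201, -0.22 and -0.161 in control libraries 1 to 5. The slope was positive in 5 of the 6 transgenic libraries and negative in every control library, so GC content and genotype move together, and the counts of members by subunit and class are given with and without removal of that trend. In bulk tissue, fewer cells of a type and less RNA per cell cannot be told apart.

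The promoter windows of 5 members that the results turn on are shown first, because the promoters of this family are known for shared motifs. Each window runs 5′ to 3′ on the strand of the gene, from 250 bases before to 50 bases after the RefSeq start site on GRCm38.p6. Capitals mark matches to CCGGAAG, the core of sites bound by ETS factors such as GABP, and to GCGCA, any base and GCGC, the site of nuclear respiratory factor 1 (NRF1), on either strand. The windows lie at chr7:105811038-105811337 (Mrpl17, minus strand), chr8:71464676-71464975 (Mrpl34, plus strand), chr11:120484387-120484686 (Mrpl12, plus strand), chr14:20393585-20393884 (Mrps16, minus strand) and chr4:49521034-49521333 (Mrpl50, minus strand).
Mrpl17: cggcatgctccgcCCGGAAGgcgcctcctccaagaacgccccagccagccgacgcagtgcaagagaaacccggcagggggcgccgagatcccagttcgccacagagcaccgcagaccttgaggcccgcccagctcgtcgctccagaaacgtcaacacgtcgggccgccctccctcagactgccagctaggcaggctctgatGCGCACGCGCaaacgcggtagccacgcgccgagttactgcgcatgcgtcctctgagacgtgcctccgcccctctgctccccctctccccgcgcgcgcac
Mrpl34: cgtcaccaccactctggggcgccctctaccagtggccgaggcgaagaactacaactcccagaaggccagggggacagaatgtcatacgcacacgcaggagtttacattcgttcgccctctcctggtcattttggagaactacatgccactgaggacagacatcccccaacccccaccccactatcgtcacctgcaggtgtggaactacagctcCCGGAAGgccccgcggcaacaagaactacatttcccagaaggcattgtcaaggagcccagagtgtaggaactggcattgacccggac
Mrpl12: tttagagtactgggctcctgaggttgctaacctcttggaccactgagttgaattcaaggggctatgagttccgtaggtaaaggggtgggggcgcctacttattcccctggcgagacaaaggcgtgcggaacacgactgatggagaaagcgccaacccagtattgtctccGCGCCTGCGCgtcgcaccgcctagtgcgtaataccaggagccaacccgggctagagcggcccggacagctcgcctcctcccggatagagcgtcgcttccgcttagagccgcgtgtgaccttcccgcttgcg
Mrps16: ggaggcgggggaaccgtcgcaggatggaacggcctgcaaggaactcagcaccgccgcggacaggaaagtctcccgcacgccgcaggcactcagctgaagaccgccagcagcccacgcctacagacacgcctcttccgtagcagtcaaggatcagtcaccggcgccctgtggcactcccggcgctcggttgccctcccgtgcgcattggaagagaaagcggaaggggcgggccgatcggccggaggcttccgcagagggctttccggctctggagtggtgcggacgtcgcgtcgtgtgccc
Mrpl50: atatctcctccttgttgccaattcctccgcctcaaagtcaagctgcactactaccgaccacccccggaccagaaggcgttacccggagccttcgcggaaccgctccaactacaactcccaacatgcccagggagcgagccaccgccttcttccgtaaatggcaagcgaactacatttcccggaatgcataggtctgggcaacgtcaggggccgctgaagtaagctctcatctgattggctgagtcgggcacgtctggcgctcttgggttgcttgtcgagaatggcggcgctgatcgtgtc

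Mrpl17 held an ETS match 237 bases and an NRF1 match 49 bases before its start. Mrpl34 held an ETS match 37 bases before its start, Mrpl12 an NRF1 match 81 bases before it, and Mrps16 and Mrpl50 neither of these exact letters. Both factors are known regulators of nuclear genes for mitochondrial proteins. Windows were found for 69 of the 78 members. ETS letters stood in 24 of them, 34.8%, against 12.3% of the windows of 16522 protein-coding genes. NRF1 letters stood in 13 member windows, 18.8%, against 6.91% of all windows. AAGATGGCG, a site of the factor YY1, stood in 8 member windows, 11.6%, against 2.03% of all windows. TATAAA, the TATA box, stood in 4 member windows, 5.8%, against 12.9% of all windows. The windows of Mrpl33, Mrps24, Mrpl35 and Mrpl36 lay 17016, 7979, 3185 and 2496 bases from the gene start in GENCODE. Mrpl33 held ETS letters there, Mrps24, Mrpl35 and Mrpl36 held AAGATGGCG, and Mrps24 also held TATAAA. Member windows had a median GC content of 58.3%, against 57.0% of all windows, and a median of 21 CpG dinucleotides, against 14. With no correction for GC content, ETS letters stood in 6 of 17 windows of members that rose and 17 of 51 windows of the other members tested, and NRF1 letters in 3 of 17 and 10 of 51. Among the 7 windows of members that rose with the GC trend of the longest transcript removed, ETS letters stood in 1 and NRF1 letters in 3.

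After a filter on low counts 77 of the 78 members were tested. Levels averaged over the 11 libraries ran from 2.55 CPM for Mrps36 to 57.3 CPM for Mrpl3, which encodes the counterpart of bacterial ribosomal protein L3, with a median of 22.7 CPM. Per kilobase of all annotated exons (RPKM), the highest levels were those of Mrpl41 at 37.0 RPKM, Mrpl28 at 26.8 RPKM and Mrpl10 at 25.2 RPKM. Mrpl41 ranged from 36.1 to 42.6 RPKM in transgenic libraries and from 33.8 to 35.5 RPKM in control libraries, and all of those values lay above every value of Mrpl28 and Mrpl10. Mrpl28 and Mrpl10, the next in the order, did not differ beyond their spread: Mrpl28 ranged from 26.7 to 31.4 RPKM and Mrpl10 from 25.1 to 28.5 RPKM in transgenic libraries, and Mrpl28 from 22.1 to 26.7 RPKM and Mrpl10 from 22.3 to 24.3 RPKM in control libraries. The lowest tested members were Mrpl23 at 0.742 RPKM, Mrpl33 at 1.9 RPKM and Mrps10 at 1.94 RPKM. These levels depend on which exons are counted in the length. Per kilobase of the principal transcript, the main coding isoform in the annotation, Mrpl23 stood at 5.24 RPKM and stayed low in the order, at rank 70, while Mrps10 stood at 15.4 RPKM (rank 38) and Mrpl33 at 29.1 RPKM (rank 10). The highest were Mrpl20 at 51.1 RPKM, Mrpl52 at 48.7 RPKM and Mrps18a at 47.5 RPKM. The rank correlation of the orders by exon length and by principal transcript was 0.73 over 77 members.

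Large-subunit members had a median of 10.6 RPKM and small-subunit members 8.08 RPKM, or 16.6 RPKM and 11.8 RPKM on the principal transcript. Mrpl53, a large-subunit protein specific to mitochondria, failed the filter with 0 to 7 counts per library, 24 counts in all in transgenic libraries and 10 in control libraries. Because 88.0% of its exon bases overlap the annotated gene Gm42688, its count may understate it. With no filter its log2 fold change was 1.02 (adjusted p = 0.372). Of the members, 33 share exon bases with another annotated gene and 23 with a protein-coding one. In 7 members over 25% of exon bases lie in 1 other gene. The kit does not mark strand, so the reads of such overlapping genes cannot be told apart. Among these 7 are Mrps25 (69.8% of exon bases shared), Mrps34 (63.4%), Mrpl19 (36.0%) and Mrpl24 (26.3%). The members lie on 17 chromosomes, with 11 on chromosome 11, 8 on chromosome 17 and 7 on chromosome 6.

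Transcripts of 21 members rose in transgenic CA1 and 1 fell, and the changes were small. Among all 17293 genes tested, 7.41% rose and 10.5% fell at the same threshold (edgeR quasi-likelihood test, Benjamini-Hochberg adjusted p under 0.05 over all genes), so the 27.3% of members that rose was above the share of all genes and the 1.3% that fell was below it. Members that rose had log2 fold changes of 0.16 to 0.39. Fold changes were above 0 for 59 members and below 0 for 18, with a median of 0.12 (quartiles 0.041 and 0.199), against a median of 0.009 over all genes and 0.029 over protein-coding genes. With the GC trend of the longest transcript removed from each library, 9 members rose and none fell, against 1.16% of all genes higher and 0.821% lower, and the median was 0.096 over members and -0.003 over all genes. Using the GC content of the principal transcript instead, 2 members rose, Mrpl17 and Mrps16, and none fell, against 0.503% of all genes higher and 0.596% lower. The median was then 0.101 over members and 0.001 over all genes, with 67 members above 0 and 10 below. With the trend of exon length removed beside that of the longest transcript's GC content, the median over members was 0.061, against -0.005 over all genes. With the trends of GC content and length of the principal transcript removed it was 0.062, against -0.0 over all genes.

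**Figure D1:**
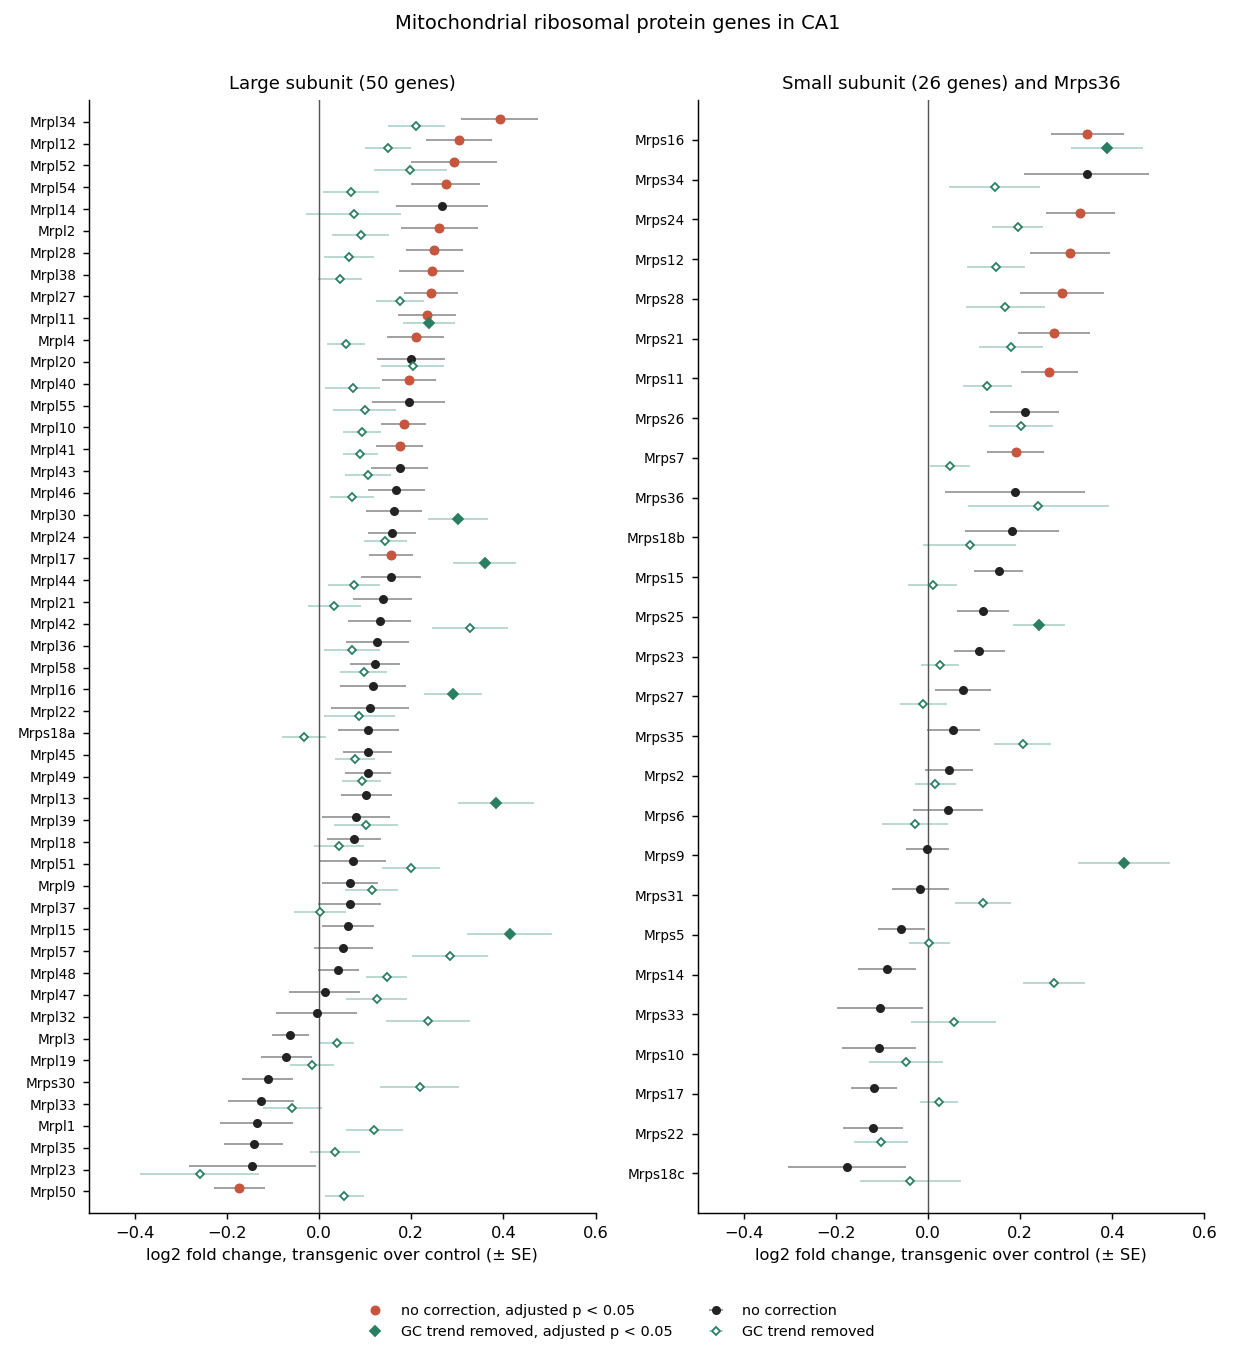
Log2 fold change, transgenic over control, of 77 members, with bars of 1 standard error from the fit. Circles show the fit with no correction, in red where the adjusted p was under 0.05, and diamonds the fit with the GC trend of the longest transcript removed, filled where the adjusted p was under 0.05. Most circles lie right of 0, with Mrpl34 at 0.39 the highest and Mrps18c at -0.18 the lowest.

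Of 50 large-subunit members tested, 14 rose and 1 fell (median log2 fold change 0.124), and of 26 small-subunit members 7 rose and none fell (median 0.093). With the GC trend of the longest transcript removed, 6 large-subunit members rose (median 0.094) and 3 small-subunit members (median 0.105). With that of the principal transcript removed, 1 of each rose, with medians of 0.101 and 0.081. Members with a bacterial counterpart counted 16 that rose of 46 (median 0.132), and members specific to mitochondria counted 5 that rose and 1 that fell of 30 (median 0.109). With the GC trend of the longest transcript removed these counts were 8 that rose of 46 and 1 that rose of 30, and with that of the principal transcript 2 and 0. None of the 10 small-subunit members specific to mitochondria passed the test with no correction. Neither subunit nor ancestry was tested as a difference.

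Several large-subunit members that rose carry functions well known from bacteria. Mrpl34 (ENSMUSG00000034880, chromosome 8, 71464959 to 71465747) encodes the counterpart of bacterial L34, one of the smallest ribosomal proteins. It ran from 13.6 to 17.3 CPM in transgenic libraries, with a median of 14.8 CPM, and read 11.1, 13.3, 11.4, 10.5 and 11.6 CPM in control libraries 1 to 5. Every transgenic library lay above every control library. The log2 fold change was 0.39 ± 0.08 (standard error, SE, from the fit, adjusted p = 0.0138), against 0.21 (adjusted p = 0.0907) with the GC trend of the longest transcript removed.

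Mrpl12 (ENSMUSG00000039640, chromosome 11, 120484613 to 120489065) encodes the counterpart of the bacterial stalk protein that recruits translation factors, and Mrpl10 and Mrpl11 encode the base of that stalk. Mrpl12 ran from 29.5 to 38.0 CPM in transgenic libraries, with a median of 33.5 CPM, and read 28.0, 28.8, 28.0, 26.7 and 25.5 CPM in control libraries 1 to 5. The groups did not overlap, the lowest transgenic library being number 6. Its log2 fold change of 0.30 ± 0.07 (SE, adjusted p = 0.0172) was 0.15 (adjusted p = 0.124) with the GC trend of the longest transcript removed. Mrpl11 ran from 31.2 to 35.3 CPM, median 33.4 CPM, in transgenic libraries and read 25.9, 30.2, 30.5, 29.4 and 25.6 CPM in control libraries. Its groups did not overlap either. Its fold change barely moved with the correction: it was 0.23 ± 0.06 (SE, adjusted p = 0.0249) with none, 0.24 (adjusted p = 0.0488) with the longest transcript and 0.25 (adjusted p = 0.0516) with the principal transcript. Mrpl10 had a log2 fold change of 0.18 (adjusted p = 0.0256) with no correction and 0.09 (adjusted p = 0.258) with that of the longest transcript.

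Mrpl27, whose bacterial counterpart reaches the peptidyl transferase centre, ran from 17.2 to 19.7 CPM, median 17.9 CPM, in transgenic libraries and read 14.3, 15.7, 15.9, 15.9 and 14.9 CPM in control libraries. The groups did not overlap, with a log2 fold change of 0.24 ± 0.06 (SE, adjusted p = 0.0189), against 0.18 (adjusted p = 0.0934) with the GC trend of the longest transcript removed. Mrpl28, one of the most abundant members, ran from 36.8 to 43.4 CPM in transgenic libraries and from 30.5 to 36.8 CPM in control libraries, so that transgenic library 6 lay just below control library 2 and the groups overlapped by that pair. Its log2 fold change was 0.25 (adjusted p = 0.0186), against 0.07 (adjusted p = 0.574) with that trend removed. Mrpl41, a protein specific to mitochondria, rose by 0.17 on the log2 scale (adjusted p = 0.0332), against 0.09 (adjusted p = 0.225).

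Mrpl17 (ENSMUSG00000030879, chromosome 7, 105803206 to 105811099), whose bacterial counterpart lies near the exit of the peptide tunnel, behaved otherwise. It ran from 32.5 to 35.4 CPM, median 33.8 CPM, in transgenic libraries and read 30.1, 31.1, 31.0, 31.4 and 28.4 CPM in control libraries. The groups did not overlap. Its GC content was 43.0%, and its log2 fold change of 0.16 ± 0.05 (SE, adjusted p = 0.0393) became 0.36 (adjusted p = 0.0314) with the GC trend of the longest transcript removed and 0.38 (adjusted p = 0.0354) with that of the principal transcript.

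Among small-subunit members, Mrps16 (ENSMUSG00000049960, chromosome 14, 20389304 to 20393634), whose bacterial counterpart is needed to assemble the small subunit, ran from 14.36 to 17.90 CPM, median 14.96 CPM, in transgenic libraries. Control libraries 1 to 5 read 11.87, 12.82, 13.11, 12.96 and 11.01 CPM. No control library reached the lowest transgenic one. The log2 fold change was 0.35 ± 0.08 (SE, adjusted p = 0.0161), and 0.39 (adjusted p = 0.0328) and 0.40 (adjusted p = 0.0383) with the GC trends of the longest and the principal transcript removed.

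Mrps24, the counterpart of bacterial S3 at the entry of the message channel, ran from 20.02 to 25.61 CPM, median 21.24 CPM, in transgenic libraries and read 17.89, 19.29, 16.77, 16.02 and 17.32 CPM in control libraries. The groups did not overlap. Its log2 fold change was 0.33 ± 0.07 (SE, adjusted p = 0.0155), against 0.19 (adjusted p = 0.0843) with the GC trend of the longest transcript removed. Mrps11, the counterpart of bacterial S11, ran from 17.0 to 19.8 CPM, median 18.1 CPM, in transgenic libraries and from 14.5 to 16.1 CPM in control libraries, with a log2 fold change of 0.26 (adjusted p = 0.0167), against 0.13 (adjusted p = 0.214) with that trend removed. Mrps12, whose bacterial counterpart takes part in decoding, had a log2 fold change of 0.31 (adjusted p = 0.0293), Mrps21 of 0.27 (adjusted p = 0.0316) and Mrps28 of 0.29 (adjusted p = 0.0442). With that trend removed the values of these members were 0.15, 0.18 and 0.17, and none passed.

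**Figure D2:**
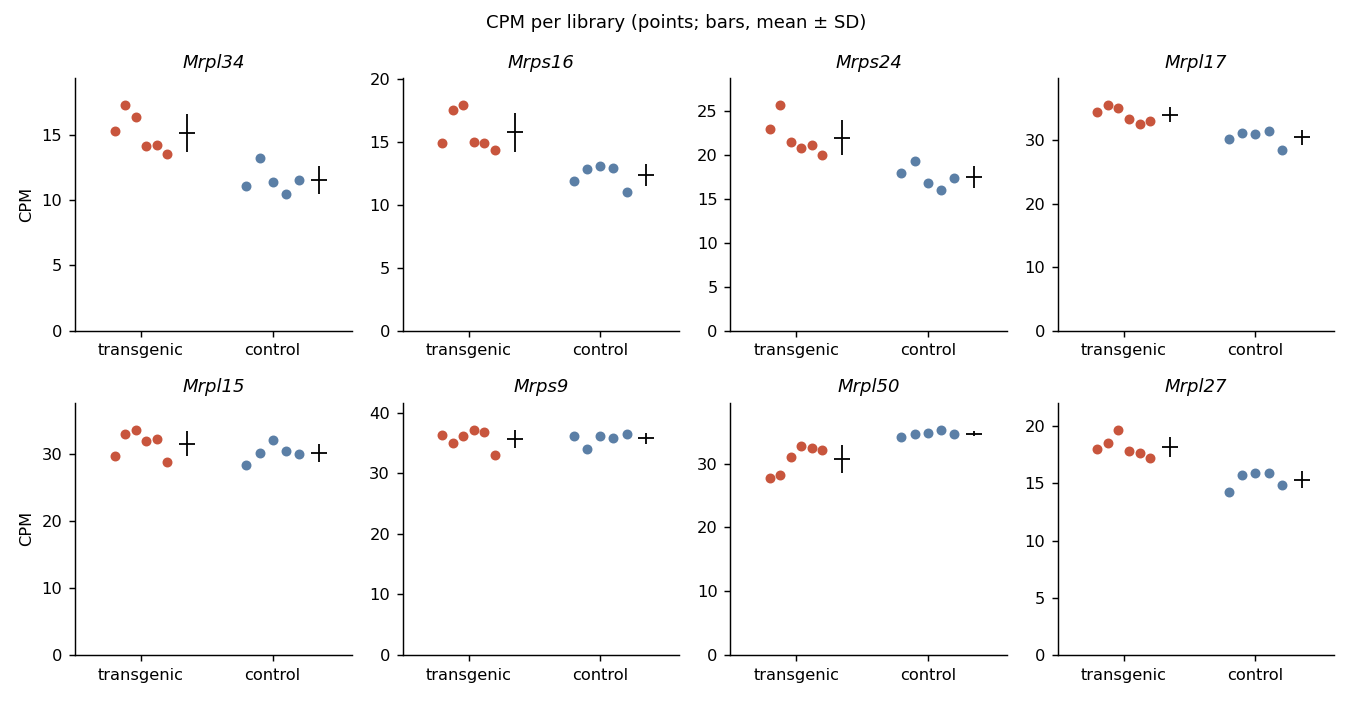
CPM of 8 members in each library, with transgenic libraries in red and control libraries in blue, points in order of replicate number and bars for the mean ± SD (n = 6 and n = 5), on axes that start at 0. Transgenic libraries lie above control libraries without overlap for Mrpl34, Mrps16, Mrps24, Mrpl17 and Mrpl27, overlap them for Mrpl15 and Mrps9, and lie below them for Mrpl50.

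Mrpl50 (ENSMUSG00000044018, chromosome 4, 49512596 to 49521093), a large-subunit protein specific to mitochondria, was the member that fell with all 11 libraries, and it passed in 2 of the 11 fits with 1 library left out. It ran from 27.8 to 32.8 CPM, median 31.6 CPM, in transgenic libraries and read 34.1, 34.6, 34.8, 35.3 and 34.6 CPM in control libraries. Every transgenic library lay below every control library, and the lowest were transgenic libraries 1 and 2, those with the steepest GC slopes. Its GC content was 42.3%. The log2 fold change of -0.17 ± 0.06 (SE, adjusted p = 0.0461) turned to 0.05 (adjusted p = 0.546) with the GC trend of the longest transcript removed and to 0.08 (adjusted p = 0.382) with that of the principal transcript. Mrps18c and Mrpl23 had log2 fold changes of -0.18 (adjusted p = 0.351) and -0.14 (adjusted p = 0.482) with no correction, the lowest of the members not called. With the GC trend of the longest transcript removed they stood at -0.04 (adjusted p = 0.898) and -0.26 (adjusted p = 0.316). With that of the principal transcript removed Mrpl23 stood at -0.33 (adjusted p = 0.232), the lowest of the members.

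In 14 of the 77 members tested, every transgenic library lay above every control library, 18.2%, against 3.04% of all genes. They were Mrpl10, Mrpl11, Mrpl12, Mrpl17, Mrpl24, Mrpl27, Mrpl34, Mrpl40, Mrpl41, Mrps11, Mrps16, Mrps21, Mrps24 and Mrps28. In 1 member, Mrpl50, every transgenic library lay below, 1.3%, against 4.73% of all genes. With the GC trend of the longest transcript removed the count was 13 higher, 16.9% against 2.0% of all genes, and none lower, against 1.45%. With that of the principal transcript removed it was 11 higher, 14.3% against 1.77% of all genes, and none lower, against 1.33%.

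Fold changes followed GC content within the family, as they did over all genes, and with no correction the members' fold changes also followed exon length. Over the 77 members, fold change and GC content of the longest transcript had a rank correlation of 0.71, and fold change and exon length one of -0.62. Over 17246 genes the value for GC content was 0.684. With the GC trend of the longest transcript removed, the values for GC content were -0.35 over members and 0.014 over those genes. The members' value for exon length was then 0.09. Members share libraries and scaling, so these describe the data and carry no p. Of 39 members with GC content above 49.6%, the median of all genes tested, 18 rose and none fell, with a median log2 fold change of 0.183, against 1200 higher and 40 lower of 8623 genes in the same range and a median of 0.126. Of 38 members at or below it, 3 rose and 1 fell, with a median of 0.047, against 81 higher and 1765 lower of 8623 genes and a median of -0.143. In both ranges the members' median stood above that of all genes. With the GC trend of the longest transcript removed, 0 of the 39 members rose (median 0.075), against 0.441% of genes in that range (median 0.001). Of the 38 members, 9 rose (median 0.173), against 1.88% of genes (median -0.007). With that of the principal transcript removed, 0 of the 39 and 2 of the 38 rose, against 0.29% and 0.719% of genes. The 18 members that rose only with no correction had GC contents of 51.5% to 60.4%. The part of GC content in those calls was not tested apart from the fits with the trend removed.

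**Figure D3:**
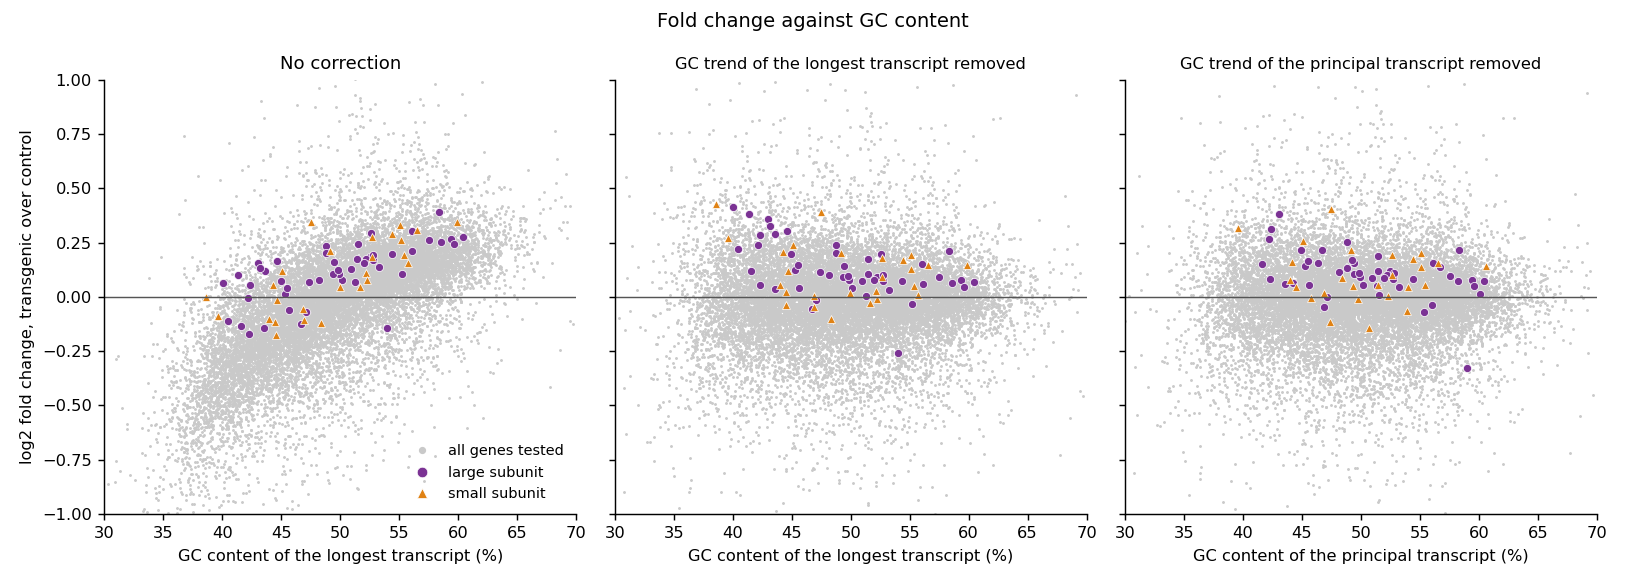
Log2 fold change, transgenic over control, against GC content, for all genes tested (grey), large-subunit members (purple circles) and small-subunit members (orange triangles, without Mrps36), with no correction and with the GC trend of the longest or the principal transcript removed. Of 17246 genes, 108, 56 and 60 lie outside the axes. The grey cloud slopes upward on the left and is flat in the other panels, and members lie mostly in its upper part, with medians of 0.12, 0.096 and 0.101.

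Which transcript stood for a gene decided several calls. Mrpl13, Mrpl15, Mrpl16, Mrpl30, Mrps9 and Mrps25 rose only with the GC trend of the longest transcript removed, and none of them with that of the principal transcript. Mrps9, the counterpart of bacterial S9, read 33.1 to 37.2 CPM in transgenic libraries and 36.2, 34.1, 36.2, 35.9 and 36.5 CPM in control libraries. The groups overlapped throughout and the log2 fold change was -0.00 (adjusted p = 0.985). Its longest transcript had a GC content of 38.6% and its principal transcript 49.7%, and the corrected log2 fold changes were 0.43 (adjusted p = 0.0472) and -0.01. Mrpl13 had 41.3% and 51.3%, and corrected values of 0.38 (adjusted p = 0.0387) and 0.05 (adjusted p = 0.658). Mrpl15, the counterpart of bacterial L15, read 28.7 to 33.6 CPM in transgenic libraries and 28.4 to 32.1 CPM in control libraries, and had corrected values of 0.41 (adjusted p = 0.0417) and 0.16 (adjusted p = 0.168). The GC contents of the longest and the principal transcript differed by more than 3 points in 15 of the 77 members. Mrps25, where both choices gave 45.1%, had 0.24 (adjusted p = 0.0466) and 0.26 (adjusted p = 0.0514).

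The members' mean deviation from each gene's average log2 CPM was 0.0706, 0.0985, 0.0882, 0.0506, 0.0129 and -0.0209 in transgenic libraries 1 to 6. It was -0.104, -0.0281, -0.0173, -0.0356 and -0.115 in control libraries 1 to 5. Transgenic library 6 lay below control library 3, so the groups overlapped by that pair. The transgenic libraries with the highest member levels, 1 to 3, were those with the steepest GC slopes, and transgenic libraries 5 and 6 were lowest in both. Control libraries did not follow this: controls 3 and 4 had the lowest slopes (-0.201 and -0.22) and deviations of -0.0173 and -0.0356. Control 2, with the highest slope (-0.062), stood at -0.0281, and control 1 (slope -0.119) at -0.104. The deviations hardly moved with the GC trend of the principal transcript removed, at -0.0209 to 0.0887 in transgenic libraries and -0.113 to -0.0171 in control libraries. Members with lower GC content overlapped widely, at -0.0078 to 0.0518 in transgenic libraries and -0.0802 to 0.0563 in control libraries. Counts of all 78 members made up 18.932 to 20.277 of every 10000 counts in transgenic libraries (mean 19.62 ± 0.545, SD, n = 6) and 17.382 to 18.594 in control libraries (mean 18.01 ± 0.504, SD, n = 5). On that simple scale, which has no TMM scaling, the groups did not overlap. The ratio of large-subunit to small-subunit counts was 2.16 ± 0.0314 in transgenic libraries and 2.11 ± 0.0344 in control libraries (SD), and overlapped, at 2.114 to 2.199 and 2.064 to 2.154.

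**Figure D4:**
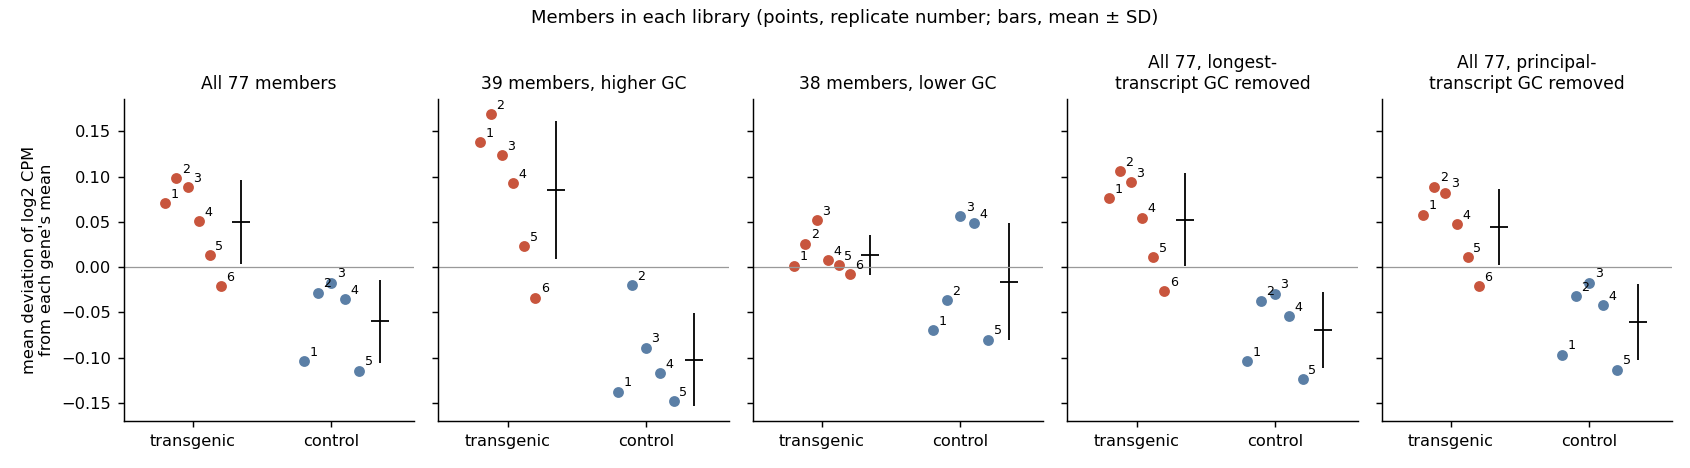
Mean deviation of log2 CPM from each gene's mean, over all 77 members tested, over those with GC content of the longest transcript above or at and below 49.6%, and over all members with the GC trend of the longest or the principal transcript removed. Points are libraries with their replicate number (transgenic red, control blue) and bars the mean ± SD (n = 6 and n = 5). In the first panel transgenic library 6, at -0.0209, lies below control library 3, at -0.0173.

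Many calls at the adjusted threshold changed with 1 library left out. With no correction, 30 to 38 members had an unadjusted p under 0.05 (edgeR quasi-likelihood test) in the positive direction in those 11 fits. With all libraries it was 33. In those fits 4879 to 6794 of all genes had an unadjusted p under 0.05 in either direction, of 17068 to 17466 tested. With all libraries it was 5996 of 17293. With each library left out in turn, 6 to 28 members rose, and the median log2 fold change stayed between 0.105 and 0.138. Of all genes, 1155 to 4712 passed in either direction. Those that rose ran from 361 of 17346 genes without control 4 to 2132 of 17068 without transgenic 6. Fewest members rose without control 5 (6), control 1, control 4, transgenic 2 or transgenic 3 (7 each), transgenic 1 (9) and control 3 (11). Most members rose without transgenic 6 (28) and control 2 (27). Mrpl12, Mrpl27, Mrpl34, Mrps11, Mrps16 and Mrps24 rose in all 11 of these fits. Mrpl50 fell only without transgenic 5 (adjusted p = 0.043) and without transgenic 6 (adjusted p = 0.0292), and in the other 9 its log2 fold change of -0.19 to -0.15 had adjusted p of 0.053 to 0.102. With the GC trend of the longest transcript removed as well, no member rose in 8 of the 11 fits, where edgeR called no gene at all. There 25 to 31 members had an unadjusted p under 0.05 in the positive direction, and 2490 to 3225 of all genes in either direction. In the other fits 8 members rose without control 2, 8 without transgenic 5 and 15 without transgenic 6. There 513, 308 and 942 of all genes passed in either direction, and 1.71%, 1.07% and 3.16% of all genes rose.

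The authors' deposited tables of genes higher or lower in transgenic mice list 25 members as higher and 1 as lower, against 10.3% and 11.6% of all genes tested here. All 21 members that rose here are among the 25 in the authors' deposited table, which adds Mrpl20, Mrpl24, Mrps15 and Mrps26. The authors' deposited table gives Mrpl34 a log2 fold change of 0.39 (adjusted p = 0.000897) and Mrpl50 one of -0.17 (adjusted p = 0.0321).

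Other genes of mitochondrial translation were counted from lists, against the 7.41% of all genes that rose and the 10.5% that fell. Of 5 mitochondrial ribosomal proteins with other symbols, Aurkaip1 rose by 0.24 on the log2 scale (adjusted p = 0.0185), at 41.9 to 50.2 CPM in transgenic libraries and 37.0 to 41.9 CPM in control libraries. It did not pass with the GC trend of the longest transcript removed (0.08, adjusted p = 0.421) or with that of the principal transcript removed (0.09, adjusted p = 0.394). The other 4, Dap3, Chchd1, Ptcd3 and Gadd45gip1, ran from -0.16 to 0.26 and did not pass, and the median over the 5 was 0.116. Of 26 assembly factors of the mitochondrial ribosome, 3 rose and 2 fell, with a median of 0.105. Malsu1, which keeps the subunits apart during assembly, rose by 0.31 (adjusted p = 0.031), Mpv17l2 by 0.29 (adjusted p = 0.0293) and the GTPase Mtg1 by 0.19 (adjusted p = 0.0361). Fastkd2, a protein of mitochondrial RNA granules, had a log2 fold change of -0.22 (adjusted p = 0.0342) and Mterf3 of -0.33 (adjusted p = 0.0447). Malsu1 and Mtg1 rose and none fell once the GC trend of the longest transcript was removed (median 0.052), and with that of the principal transcript only Malsu1 of these 26 passed, at 0.48 (adjusted p = 0.0482).

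Of 17 factors of mitochondrial translation none rose and Guf1, the mitochondrial counterpart of the bacterial elongation factor LepA, fell (log2 fold change -0.39, adjusted p = 0.0117), and of 20 genes of mitochondrial transcription and RNA processing 3 rose (Polrmt, Hsd17b10 and Fastk) and 3 fell (Mtpap, Pnpt1 and Fastkd1). None of the genes of these lists passed once the GC trend of either transcript was removed. The mitochondrial ribosomal RNAs did not pass with no correction: mt-Rnr1 had a log2 fold change of -0.21 (adjusted p = 0.225) and mt-Rnr2 of -0.35 (adjusted p = 0.0941). Once the GC trend of the longest transcript was removed, mt-Rnr1 turned to 0.35 (adjusted p = 0.0419) and mt-Rnr2 to 0.23 (adjusted p = 0.127). These RNAs have a median GC content of 35.6%, and genes of the mitochondrial chromosome took 3.0% to 4.15% of counts in transgenic libraries and 3.86% to 5.03% in control libraries.

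Some markers of other cell types passed beside the members. Of 8 microglial markers 4 rose and none fell, with a sum of 276 to 369 CPM in transgenic libraries and 248 to 302 CPM in control libraries, and of 8 astrocyte markers 3 rose and 1 fell, with sums of 4770 to 5680 CPM and 5460 to 6120 CPM. Of 7 oligodendrocyte markers none passed, although all 7 had log2 fold changes above 0, with a median of 0.294, or 0.23 and 0.21 with the GC trend of the longest and the principal transcript removed. Their sums were 3580 to 6170 CPM in transgenic libraries and 2970 to 5060 CPM in control libraries. Among 6 markers of oligodendrocyte precursors Sox10 rose (log2 fold change 0.41, adjusted p = 0.0372), among 8 of interneurons Slc32a1 rose (0.22, adjusted p = 0.0209), and among 6 of endothelium Slco1a4 fell (-0.36, adjusted p = 0.0333). No marker of the 10 cell types passed with the GC trend of either transcript removed. Markers of dentate granule neurons, a neighbouring field, summed to 74.0 to 210 CPM in transgenic libraries and 78.4 to 241 CPM in control libraries, and none passed. The part of cell type makeup in the members' changes was not tested.

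Members stand back to back with another protein-coding gene more often than genes do in general. A start site of a protein-coding gene on the opposite strand lay within 1000 bases upstream for 18 of the 77 members tested, 23.4%, against 9.27% of 14654 protein-coding genes tested. The 18 neighbours counted 2 that rose, Klc4 beside Mrpl2 and Sars2 beside Mrps12, and none that fell, with a median log2 fold change of 0.041, against 151 higher and 149 lower of the 1359 genes with such a neighbour. The 18 members beside them counted 6 that rose and 1 that fell (median 0.134), and the 59 members with no such neighbour 15 that rose (median 0.12). Once the GC trend of the longest transcript was removed, neither Klc4 nor Sars2 passed. The neighbour that passed there was Psma2, a proteasome subunit gene beside Mrpl32 (adjusted p = 0.0314, against 0.141 with no correction), and the member with a neighbour that passed was Mrpl30 (adjusted p = 0.039, against 0.0789). Psma2 and Mrpl32 were chosen after their values were seen. Median log2 fold changes were then 0.091 over the 18 members with a neighbour, of which 1 rose, and 0.106 over the 59 without one, of which 8 rose. Sars2 encodes the mitochondrial seryl-tRNA synthetase. Its log2 fold change was 0.25 (adjusted p = 0.0447) beside 0.31 for Mrps12, and 0.05 and 0.15 with the GC trend of the longest transcript removed. Mrpl50 and its neighbour Zfp189, 83 bases apart, had log2 fold changes of -0.17 and -0.18, of which that of Zfp189 did not pass (adjusted p = 0.417).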

How the data were processed

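Polyadenylated RNA of dissected CA1 was prepared with the TruSeq v2 kit and sequenced as 50-base single reads, per the labels' protocols. That kit is known not to mark strand. The authors deposited raw read counts per Ensembl gene for 11 libraries. The submitters' processing notes name FastQC 0.11.5, STAR 2.5.2b, featureCounts, Subread 1.5.1 and the mm10 build, without the settings used to count. Tables deposited by the authors list genes higher and lower in transgenic mice, with log2 fold changes, adjusted p-values and a signal per library that equals the counts divided by 1 factor per library. The tool behind these is not stated.

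Names, coordinates and GC content came from GENCODE M21, which named 48349 of 48709 features. Counts were tested with edgeR 4.0.16 (R 4.3.3): TMM scaling, a filter on low counts by genotype, and the quasi-likelihood test of transgenic against control, with Benjamini-Hochberg adjustment over 17293 genes. CPM and RPKM were computed from the same counts, with library totals of the tested genes after TMM scaling. GC and length trends were removed per library as offsets, by lowess (span 0.3) of log2 CPM with a prior count of 2. Alternatives used DESeq2 1.42.0, limma 3.58.1 and sva 3.50.0. The edgeR fits with no correction and with the GC trend removed were run on simulated counts that held no GC or length trend. Removal of a GC trend that moves with genotype was thus not tested by simulation. The replicate numbers did not pair the libraries, so no pairing was used.

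The members and lists were chosen with earlier results of these data known. Members named were the 6 of each subunit that rose with the lowest p, any that fell and the 3 lowest fold changes, up to 6 called with the GC trend removed, the 3 highest and the 3 lowest in RPKM, any that failed the filter, and any the authors list as lower. Other members, Mrps9 and Mrps25 among them, were chosen after their values were seen, as were the fits with the principal transcript. Promoter windows came from RefSeq (GRCm38.p6). They were not used for Mrpl13, Mrpl15, Mrpl19, Mrpl38, Mrpl4, Mrpl54, Mrps28, Mrps34 and Mrps35. Total counts of 14263784 to 36898689 set the counting precision.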

Additional observations from a re-analysis of the deposited data

Results flagged for a closer look

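Mrps10, the counterpart of bacterial S10, had 1 control library far from the others of its group. Control library 1 stood at a log2 CPM of 4.26, while the other control libraries stood between 3.93 and 4.02, a gap of 0.725 of the whole range of the group. It was the 1 flag among 58 sets of libraries examined, and chance flags about 1 in 20. The log2 fold change of Mrps10 was -0.11 (edgeR quasi-likelihood test, adjusted p = 0.367).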

How the results depend on the processing

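The median log2 fold change over members stayed above 0 in each fit run. It was 0.12 with no correction, 0.105 to 0.138 with each library left out, 0.089 to 0.119 with each library left out and the GC trend of the longest transcript removed, and lowest with GC and length trends removed, at 0.061 (longest transcript) and 0.062 (principal transcript). Counts of members that rose moved more. There were 21 with no correction, 9 with the GC trend removed, 8 with GC and length, 7 with length, 10 with no filter, and 2 each with the GC trend of the principal transcript alone or with length. In the same order, 7.41%, 1.16%, 1.16%, 5.52%, 2.06%, 0.503% and 0.231% of all genes rose. Counts of members that rose ran from 6 to 28 with each library left out and from 0 to 15 with the GC trend removed too. Counts of all genes that rose ran from 361 to 2132 and from 0 to 540 in those fits. Calls over all genes numbered 3094, against 342 with the GC trend removed, 294 with GC and length, 190 and 87 with the principal transcript, and 4774 with limma voom. They ran from 1155 to 4712 with each library left out and from 0 to 942 with the GC trend removed too (513 without control 2, 308 without transgenic 5). Mrpl50 turned above 0 in each fit that removed GC content: 0.05 with the longest transcript, 0.02 with length added, 0.08 and 0.06 with the principal transcript, and 0.04 to 0.07 with a library left out. The cause was not tested. With the replicate number as a block 25 members and 11.9% of all genes rose. With the GC trend removed as well it was 12 members and 2.49% of all genes, where 746 genes passed in either direction and Mrpl50 stood at 0.08. Same-numbered libraries did not deviate together, with correlations of -0.185 to 0.197. Control 5 had the fewest counts, and members under 5 CPM such as Mrpl23, Mrps36 and Mrpl53 are measured least precisely.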
